A study of Mus musculus with 20 samples.

Results

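Translation factors are the proteins that bring a ribosome to a messenger RNA, find the start codon and then move the ribosome along the message. Their messages were followed in the blood of mice that carried a growing tumour. The factors were taken as every probe whose gene name on the array began with Eif or Eef and a digit, with Eif2ak2 left out. A probe also had to be well above background in the Cy5 channel of 4 or more of the 20 arrays. Of 139 probes and 60 gene names that fitted, 113 probes of 57 genes were kept, out of 20957 probes tested and 41174 on the array. Of the 26 probes left out, 18 were above background on 0 arrays, 6 on 1 array and 2 on 3 arrays. Just inside the limit, 1 probe reached 4 arrays and 4 probes reached 5. Eef1a2, Eif2b3 and the Y-linked Eif2s3y had no probe that passed, and no probe carried the name Eif6. Older names on the array were updated, so Eif3s6 is given as Eif3e and Eif3s10 as Eif3a. The array also calls the Argonaute genes Eif2c1 to Eif2c4. Argonautes load small RNAs and silence messages rather than start translation, and they are described last.

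Initiation starts when eIF2 carries the first transfer RNA to the small ribosomal subunit, while eIF1, eIF1A and the scaffold eIF3 hold that subunit open. The eIF4 proteins bind the cap of the message and unwind its leader, eIF5 and eIF5B let the large subunit join, and eEF1 and eEF2 then drive elongation. Circulating red cells lack a nucleus, and their youngest form, the reticulocyte, still holds ribosomes and translates a store of messages, mostly globin.

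The 4 animals were female C57Bl/6 mice, numbered 305, 310, 315 and 320. Each was bled before an injection of Hepa1-6 cells, a mouse hepatoma line, under the skin (day 0), and again on days 10, 15, 20 and 25. Each of the 20 blood samples was labelled with Cy5 and hybridised beside a common Cy3-labelled reference of blood from untreated female mice of the same strain. Values below are log2(Cy5/Cy3) or differences between them, so a level of 0 equals the reference. Each day's 4 arrays shared a slide, and no later samples of tumour-free mice were analysed here, so day, slide and handling cannot be told apart from the tumour's growth.

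Several array-wide facts bear on every value. The median Cy5 net intensity was 50.1 to 69.6 on day 0 and 21.9 to 29.7 on day 25, but only 13.0 to 21.1 on days 10 to 20. The number of factor probes above background on all 4 arrays of a day was 105, 89, 88, 95 and 104 on the 5 days in order. The number above background on none was 0, 7, 18, 12 and 1, and such dim probes lay close to a ratio of 0. The day 0 arrays did not form 1 group: over all probes tested, mouse 320 had a mean correlation of 0.390 with its own day and 0.610 with day 10, and mouse 305 had 0.461 with its own day and 0.593 with day 25. On day 20, mouse 305 had only 0.377 with its own day. Directions depend on how an array is centred. They are given here after loess, which makes the middle of the array 0 at each brightness. With each array's median subtracted instead (median centring), the median probe of the whole array moved by -0.39 from day 0 to day 10 and by 0.39 from day 10 to day 25. The median factor probe then moved by -0.89 and 0.66. The 320 control spots for the E1A spike-in RNA moved by 0.40 and -1.02 after loess, against -0.83 and 0.13 with the median.

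Many factor messages carry a run of pyrimidines at the very start, the terminal oligopyrimidine or TOP tract, through which the TOR pathway controls their translation. The tract was searched as C followed by at least 6 bases that are each C or T, on the gene's strand, from 20 bases before to 50 after the annotated start. It was present at 32.9% of all promoters in the RefSeq table (8893 of 27025 genes, build GRCm38.p6) and at 17 of 46 factor genes with an entry (37.0%). The 7 windows below, with the tract in capitals, set messages that were high on day 25 beside messages that were low. In the last pair, Eif5 and Eif4a2, it was not found.
Eif3f, chr7:108934403-108934432, + strand: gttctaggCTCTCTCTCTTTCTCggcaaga
Eef1a1, chr9:78481708-78481737, - strand: tggctccgCCCTCTTCCCgagggtggggga
Eif3a, chr19:60790644-60790673, - strand: atcacgtggttCCTTCCTTTCCgtctctgg
Eif3l, chr15:79075219-79075248, + strand: ttcttccgCTCTCTCCCacgggcttctgga
Eif3k, chr7:28981854-28981883, - strand: tgaaagcgCCTTTCCCTTTgccttccttgt
Eif5, chr12:111538096-111538125, + strand: tgcatgcgagccaatgacaagagaagttgg
Eif4a2, chr16:23107463-23107492, + strand: cccgtaggagcagggcggccgaggagcgcg
Eif3f, Eef1a1, Eif3a, Eif3l and Eif4a2 were higher on day 25 than on day 10, and Eif3k and Eif5 were lower by loess. Of the genes with a probe that rose and none that fell, 8 of 22 held the tract (36.4%). Of those with the reverse by loess, 5 of 9 held it (55.6%), and of those with no call, 4 of 14 (28.6%). A match is a description of these letters and not a mapped start of the message. Counted in bases from the annotated start, the longest match began at -5 in Eef1a1, -4 in Eif3f, 4 in Eif3l, 13 in Eif3k and 31 in Eif3a. A match further in is thus not a terminal tract by its place.

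The widest contrast lay between days 10 and 25. By limma's test with Benjamini-Hochberg adjustment over all probes tested, 57 of 113 factor probes (50.4%) differed, 36 higher and 21 lower on day 25, against a background of 31.4% of all probes tested (17.7% higher and 13.7% lower). The higher probes belonged to 28 genes and the lower to 13, with Ago4 in both counts. In 51 of the 57 all 4 mice moved the same way, and in 43 the values of the 2 days did not overlap. Both are favoured by the call itself. Neither was counted over all probes tested, so they show nothing particular to the factors. Most changes were small: 12 reached 1.5-fold and 2 reached 2-fold, both of them Eif5 probes. The median factor probe changed by 0.05, against 0.0317 over all probes tested. With median centring the split was 68 higher and 0 lower, so that every fall named below is a fall relative to probes of like brightness. Of the 57 called probes, 47 kept their side of the factors' own median in that setting. With scaling between arrays added to loess 26 were called (18 higher, 8 lower), and 33 of the 57 calls were lost, with directions kept. These were every called probe of Eif1, Eif1b, Eif2b2, Eif2b4, Eif2s2, Eif2s3x, Eif3b, Eif3c, Eif3d, Eif3f, Eif3g, Eif3h, Eif3k, Eif3l, Eif4e, Eif4g2, Eif4h, Eif5, Eef1a1, Eef1b2, Eef1d, Eef1g and Eef2, 2 of Eif3j1 and 1 each of Ago4, Eif3e, Eif4a2 and Eif5a. With the Cy5 channel alone 3 calls turned in sign, 1 probe each of Eif1, Eif3j1 and Eif4a2, and 14 were lost. The lost calls were those of Eef1d, Eif1a, Eif2b4, Eif3c, Eif3d, Eif4a3, Eif4e and Eif4enif1 and 1 probe each of Ago4, Eef1a1, Eif1, Eif2ak1, Eif3e and Eif3j1.

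**Figure D1:**
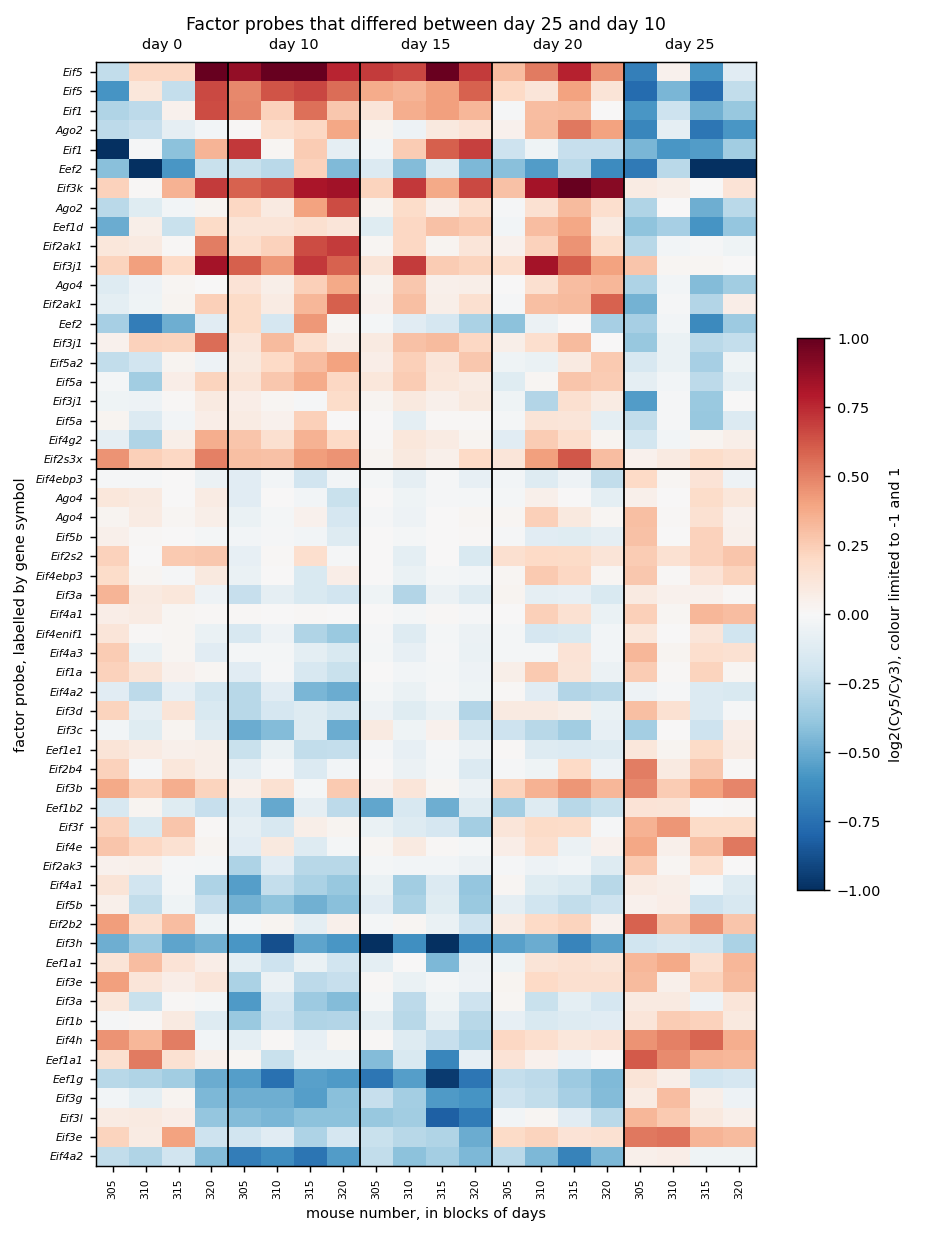
Log2(Cy5/Cy3) of the 57 factor probes that differed between days 25 and 10 after loess, 1 row per probe labelled by gene symbol, sorted by change, with the 4 mice of each day side by side and colour limited to 1 in either direction. The 21 rows above the line were lower on day 25 and the 36 below it were higher; with median centring no probe was called lower.

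Against day 0 fewer probes differed. On day 10, 21 of 113 were called (18.6%), 4 higher and 17 lower, against 11.2% of all probes (4.07% higher, 7.11% lower). The split was 0 higher and 66 lower with median centring, and 10 and 17 with the Cy5 channel alone. On day 15, 10 were called (8.85%), all lower, against 5.85% (2.02% higher, 3.82% lower). There the split was 14 higher and 20 lower with scaling between arrays and 12 and 32 with the Cy5 channel alone, and no probe was called with the median (59 at an unadjusted p under 0.05). Only 3 were called on day 20 (2.65%, 1 higher and 2 lower, background 2.87%, or 0.907% higher and 1.97% lower), or 6 with the mouse as a block. On day 25 a single probe was called (0.885%, background 0.148%, or 0.0382% higher and 0.110% lower), or 2 with the block. The median factor probe changed by -0.07, -0.02, -0.01 and 0.01 on the 4 days, against -0.0224, -0.0146, -0.0231 and -0.00181 over all probes. These counts leaned on single day 0 arrays. Without mouse 305 on day 0 the day 10 count was 6 and the day 15 count 5, and without mouse 320 on day 0 they were 31 and 17. Without mouse 315 on day 0 the day 20 count was 0, and without mouse 305 on day 20 it was 13. Without mouse 310 on day 25 the day 25 count was 10. For days 25 and 10 the count stayed between 42 and 60 whichever array was left out. With scaling between arrays 14 of the 21 calls of day 10 were lost, 6 of the 10 of day 15 (both Eef1a1 probes, Eif2s2, Eif3b, Eif3e and Eif4h), and those of days 20 and 25. With the Cy5 channel alone 7 calls of day 10 were lost and 5 turned in sign, and Eif3h on day 15 and Eif3j1 on day 25 were lost.

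A pair of time courses recurred. In 16 probes of 14 genes the level was lower on day 10 than on day 0 and higher on day 25 than on day 10: Eef1a1, Eef1e1, Eif1a, Eif1b, Eif2ak3, Eif3a, Eif3c, Eif3e, Eif3g, Eif3l, Eif4a2, Eif4enif1, Eif4h and Eif5b. In 4 probes, of Ago2, Eef2, Eif5 and Eif5a2, the level went the opposite way, though each of their day 10 changes was below 0 with median centring. Both comparisons use the day 10 arrays, so such pairs are not independent. Neither time course was counted over all probes tested, so these counts show nothing particular to the factors. Without mouse 305 on day 0 the day 10 calls of Eif3a, Eif3c, Eif3e (1 of 2 probes), Eif3g, Eif3l, Eif4h, Eif4enif1, Eif1a, Eif5b, Eef1a1, Eef2, Eif5, Eif5a2 and Ago2 were lost (adjusted p up to 0.167 over all arrays left out in turn), while those of Eif1b, Eif2ak3, Eif4a2 and Eef1e1 were kept without any 1 array. None of these 4 held in every setting. With the Cy5 channel alone Eif1b was at 0.03 and Eif2ak3 at 0.01, and Eef1e1 did not pass (-0.11, adjusted p = 0.0633). With scaling between arrays Eif1b and Eif4a2 did not pass (adjusted p = 0.377 and 0.374). Among the 16 probes, 1 of Eif3a and that of Eif5b were higher on day 10 than on day 0 with the Cy5 channel alone. Their changes were 0.22 and 0.24 (limma's adjusted p = 0.0365 and 0.00602), while the other Eif3a probe was at -0.54. Of the 113 probes, 53 were called in no comparison, and the F test over the 5 days called 44 (38.9%, background 26.9%).

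The start-codon factors held the steepest falls. Eif5, the protein that makes eIF2 hydrolyse its GTP once the start codon is found, was measured by 3 probes. Its probe A_52_P533304 read -0.59, 0.11, -0.24 and 0.66 on day 0 in mice 305, 310, 315 and 320. It read 0.48, 0.63, 0.67 and 0.56 on day 10, 0.37, 0.34, 0.41 and 0.59 on day 15, 0.20, 0.12, 0.40 and 0.13 on day 20, and -0.77, -0.46, -0.76 and -0.25 on day 25. Every day 25 value lay below every value of days 10, 15 and 20, while day 0 spread over both ranges. Day 25 was 2.21-fold below day 10 (log2 change -1.14, SE 0.18, adjusted p = 0.000282), but the change was 0.08 with median centring. Day 10 was above day 0 by 0.60 (SE 0.18, adjusted p = 0.0397), a call lost without mouse 305, 310 or 315 on day 0 or without any 1 of the day 10 arrays. A second Eif5 probe (A_51_P244439) read 0.88, 1.01, 1.09 and 0.76 on day 10 and -0.68, 0.04, -0.59 and -0.11 on day 25. It fell 2.41-fold between them (-1.27, SE 0.21, adjusted p = 0.000393; -0.05 with the median). The third probe (A_52_P336080) changed by 0.00 between the same days.

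Eif1, which keeps the scanning ribosome from starting at a wrong codon, also fell by loess, in both probes. Its probe A_52_P74044 read 0.49, 0.23, 0.55 and 0.27 on day 10 and -0.58, -0.21, -0.48 and -0.38 on day 25, with no overlap. The change was -0.80 (SE 0.16, adjusted p = 0.00136). The other probe (A_51_P283837) read 0.71, 0.02, 0.25 and -0.09 on day 10 and -0.46, -0.58, -0.56 and -0.35 on day 25, a change of -0.71 (SE 0.23, adjusted p = 0.0234). Neither result was firm: with median centring the changes were 0.40 and 0.45, and with the Cy5 channel alone they were 0.01 and -0.22. The second probe also lost its call without mouse 305 or 315 on day 10 or mouse 315 on day 25 (adjusted p up to 0.0834).

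Of the 24 start-codon probes, 5 rose and 5 fell by loess, beside 17.7% higher and 13.7% lower of all probes tested. With median centring the split was 16 and 0. Eif1b, a close relative of Eif1, read -0.37, -0.21, -0.30 and -0.29 on day 10 and 0.12, 0.25, 0.23 and 0.10 on day 25. The groups were apart and the change was 0.47 (SE 0.057, adjusted p = 5.57e-05), after a fall by 0.28 from day 0 to day 10 (SE 0.057, adjusted p = 0.00539) that was 0.03 with the Cy5 channel alone. Eif5b, the GTPase that joins the subunits, rose by 0.38 (SE 0.0786, adjusted p = 0.00169) in 1 probe and by 0.19 in another, of 5. The smaller was lost without mouse 305 on day 25 (adjusted p = 0.0522). Of the 3 eIF2 subunits, Eif2s2 rose by 0.20 in 1 of 3 probes, lost without mouse 305 or 320 on day 10 (adjusted p up to 0.0682). Eif2s3x fell by 0.25 in 1 of 3 probes by loess, against a change of 0.81 with the median, and was lost without mouse 315 or 320 on day 10 or mouse 305 or 310 on day 25 (adjusted p up to 0.0959). The alpha subunit Eif2s1, on which the stress kinases act, changed by 0.08 and 0.02 in its probes (adjusted p = 0.395 and 0.832).

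Of the eIF2B exchange factor, which recharges eIF2 with GTP, 2 of 5 probes rose and none fell. Among all probes tested, 17.7% were higher and 13.7% lower by loess. Eif2b2 read -0.02, 0.03, -0.10 and 0.05 on day 10 and 0.59, 0.29, 0.45 and 0.28 on day 25 (change 0.41, SE 0.0871, adjusted p = 0.00205, or 0.176 with scaling between arrays). Eif2b4 rose by 0.29 in 1 of its probes, lost without mouse 315 on day 10 or mouse 305 on day 25 (adjusted p up to 0.0697), and Eif2b1 changed by 0.02 (adjusted p = 0.797). The kinases that switch eIF2 off parted. Eif2ak3, the kinase of the endoplasmic reticulum known as PERK, read -0.31, -0.11, -0.28 and -0.28 on day 10 and 0.26, 0.02, 0.17 and 0.00 on day 25 (change 0.36, SE 0.0553, adjusted p = 0.000241). Eif2ak1, the heme-regulated kinase that matches globin synthesis to heme in red cell precursors, read 0.17, 0.23, 0.65 and 0.70 on day 10 and -0.28, -0.03, -0.01 and -0.04 on day 25. It fell in both probes by loess (-0.53, SE 0.13, adjusted p = 0.00451, and -0.48, SE 0.13, adjusted p = 0.0120), against changes of 0.04 and 0.06 with the median. The second of these was lost without mouse 320 on day 10 or mouse 305 on day 25 (adjusted p up to 0.0513). Eif2ak4, the amino acid sensor GCN2, was not called in either probe.

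**Figure D2:**
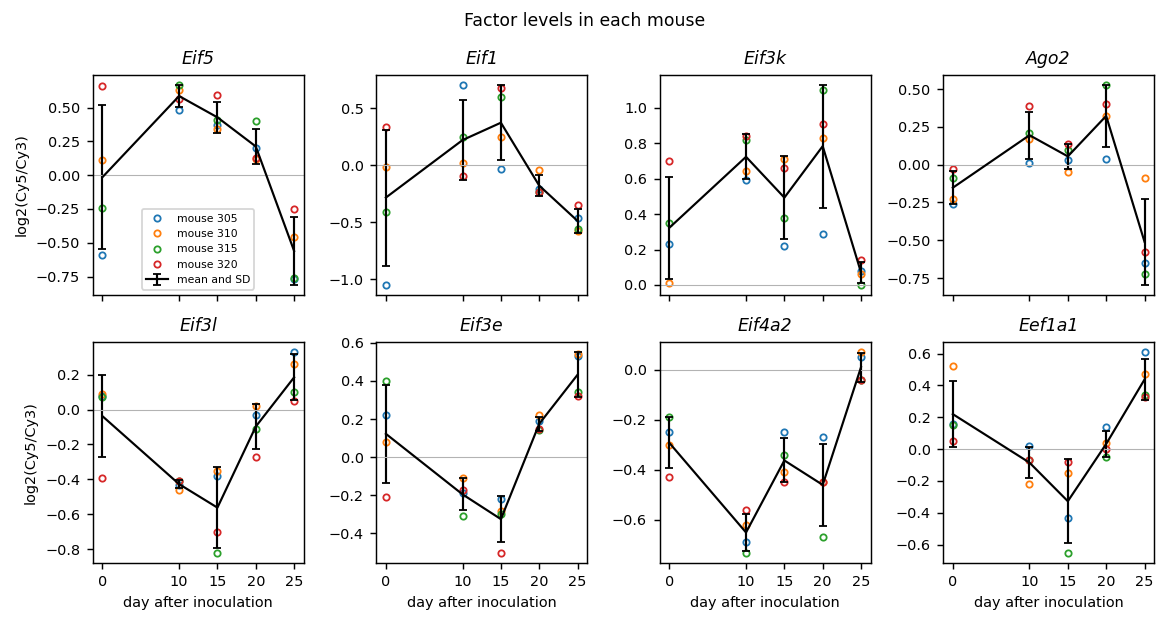
Log2(Cy5/Cy3) of 8 factor probes against day, with 1 open point per mouse and a line through the mean of 4 mice with its SD; each panel has its own vertical scale. Eif5, Eif1, Eif3k and Ago2 (top) lay lowest on day 25, while Eif3l, Eif3e, Eif4a2 and Eef1a1 (bottom) lay highest there; the falls in the top panels are by loess and were absent with median centring.

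The eIF3 scaffold, the large complex that bridges the ribosome and the cap-binding proteins, gave the most rises in number. The smaller eEF1 group held 5 in 7 probes. Of the 21 eIF3 probes, 11 were higher and 4 lower on day 25 than on day 10 by loess (median 0.21). Of all probes tested, 17.7% were higher and 13.7% lower. On day 10, 7 eIF3 probes were lower than on day 0, beside 7.11% of all probes. No group's share was tested against these. The 4 lower probes were those of Eif3k and Eif3j1, and each had a change above 0 with the median. Eif3e, a subunit tied to selective translation, read 0.22, 0.08, 0.40 and -0.21 on day 0 (A_51_P365222). It read -0.19, -0.11, -0.31 and -0.17 on day 10, -0.22, -0.28, -0.30 and -0.50 on day 15, 0.19, 0.22, 0.14 and 0.15 on day 20, and 0.53, 0.54, 0.34 and 0.32 on day 25. The values of days 15, 20 and 25 stepped up with no overlap, and day 10 overlapped day 15. Day 25 was 1.54-fold above day 10 (0.63, SE 0.096, adjusted p = 0.000232), and day 15 was below day 0 by 0.45 (adjusted p = 0.00860). A second Eif3e probe rose by 0.45 (SE 0.0749, adjusted p = 0.000410), or 0.11 with the Cy5 channel alone (adjusted p = 0.258), and its fall on day 10 from day 0 turned to a rise of 0.14 with the Cy5 channel alone.

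Eif3l, a peripheral subunit, read 0.08, 0.09, 0.07 and -0.39 on day 0, with mouse 320 far below the others. It then read -0.43, -0.46, -0.41 and -0.41 on day 10, -0.38, -0.35, -0.82 and -0.70 on day 15, -0.03, 0.02, -0.11 and -0.27 on day 20, and 0.33, 0.26, 0.10 and 0.05 on day 25. Day 25 lay above days 10, 15 and 20 in all 4 mice, 1.53-fold above day 10 (0.61, SE 0.11, adjusted p = 0.000728). Day 15 was below day 0 by 0.52 (SE 0.11, adjusted p = 0.00835). The call for day 10 against day 0 (-0.39, adjusted p = 0.0303) was lost without any 1 of mice 305, 310 and 315 on day 0 or of mice 305, 315 and 320 on day 10 (adjusted p up to 0.110).

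Eif3g, which stays with the ribosome during scanning, read -0.49, -0.49, -0.55 and -0.42 on day 10 and 0.08, 0.31, 0.06 and -0.05 on day 25 (change 0.59, SE 0.10, adjusted p = 0.000457). Eif3a, the largest subunit, rose in both probes, by 0.45 (SE 0.085, adjusted p = 0.00102) and 0.21 (SE 0.0698, adjusted p = 0.0301). The smaller rise was lost without any 1 of mice 305, 315 and 320 on day 10 or of mice 305 and 315 on day 25 (adjusted p up to 0.0781). Eif3h rose by 0.43, Eif3f by 0.33, Eif3b by 0.30, Eif3c by 0.27 and Eif3d by 0.26, in 1 probe each. The other probe of Eif3b and the other probes of Eif3c had no call, and the changes of the Eif3c probes did not all share a sign. With scaling between arrays none of the 5 rises passed (adjusted p from 0.0815 to 0.696). Eif3c also lost its call without mouse 305, 310 or 320 on day 10 or mouse 310 or 320 on day 25 and with the mouse as a block (adjusted p = 0.0508), and Eif3d lost it without mouse 305 or 320 on day 10 or mouse 305 or 310 on day 25. Eif3i, the beta-propeller subunit, changed by 0.00.

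Eif3k, the smallest subunit, went the other way by loess. It read 0.59, 0.64, 0.82 and 0.84 on day 10 and 0.08, 0.06, 0.00 and 0.14 on day 25, well apart, for a change of -0.65 (SE 0.15, adjusted p = 0.00404), and 0.49 with the median. Eif3j1, a loosely held subunit at the decoding site, fell in all 3 probes by loess (-0.50, -0.40 and -0.30, against 0.46, 0.79 and 0.40 with the median). The third was 0.22 with the Cy5 channel alone and was lost without mouse 305, 315 or 320 on day 10 or mouse 305 or 315 on day 25, and the first was lost without mouse 315 on day 10. The second (A_52_P202055) was the only factor probe called between days 25 and 0. It read 0.04, 0.23, 0.22 and 0.56 on day 0 and -0.38, -0.07, -0.27 and -0.24 on day 25 (change -0.50, SE 0.0971, adjusted p = 0.0467). That call was lost on leaving out any 1 array except mouse 305 of day 0, mouse 315 of day 20 or mouse 310 of day 25 (adjusted p up to 0.187).

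Among the cap-binding and helicase factors, 7 of 25 probes rose and 1 fell by loess, beside 17.7% and 13.7% of all probes tested. The median change was 0.07. Eif4a2, the second RNA helicase of the cap complex, had the largest rise of all factors. It read -0.25, -0.30, -0.19 and -0.43 on day 0, -0.69, -0.62, -0.73 and -0.56 on day 10, -0.25, -0.41, -0.34 and -0.45 on day 15, -0.27, -0.45, -0.67 and -0.45 on day 20, and 0.05, 0.07, -0.04 and -0.04 on day 25. Day 25 lay above every earlier sample, 1.58-fold above day 10 (0.66, SE 0.0726, adjusted p = 4.89e-05). Its other probe rose by 0.25 (adjusted p = 0.0216), lost without mouse 315 or 320 on day 10 or mouse 305 on day 25 (adjusted p up to 0.0816), and changed by -0.03 with the Cy5 channel alone. Eif4h, a helper of that helicase, read -0.10, 0.01, -0.08 and 0.02 on day 10 and 0.45, 0.50, 0.58 and 0.36 on day 25 (change 0.51, SE 0.0915, adjusted p = 0.000662), and day 15 was below day 0 by 0.48 (adjusted p = 0.00393).

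Eif4e, the cap-binding protein itself, rose by 0.36 in 1 probe (SE 0.0822, adjusted p = 0.00335) and changed by 0.15 in the other (adjusted p = 0.123). Eif4a1 rose by 0.37 in 1 of 3 probes (SE 0.096, adjusted p = 0.00790). Another Eif4a1 probe (A_51_P493364) was not well above background on any day 10 array. Its fitted change of 0.22 (adjusted p = 0.0159) was lost without mouse 315 on day 25 (adjusted p = 0.0567), and no fold is given for it. Eif4g1, the scaffold of the complex, changed by -0.15 (adjusted p = 0.166). Eif4g2, a relative that works without the cap-binding protein, had 1 of 4 probes lower on day 25 than on day 10 (-0.28, adjusted p = 0.0494, against 0.76 with the median), a call lost on leaving out any of 14 arrays in turn (adjusted p reached 0.143). A different Eif4g2 probe was lower on day 20 than on day 0 (-0.26, adjusted p = 0.0287), a call lost on leaving out any of 5 arrays in turn, mice 305, 315 and 320 on day 0 and mice 315 and 320 on day 20 (adjusted p up to 0.116).

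The eIF4E-binding proteins hold Eif4e away from the scaffold until TOR releases it. In its probe A_51_P330428, Eif4ebp1 read -0.69, -0.31, 0.00 and 0.00 on day 0 and -0.86, -0.73, -0.85 and -1.34 on day 20, with every day 20 value below day 0. The change was -0.69 (SE 0.16, adjusted p = 0.0246), the largest called on that day. It was lost without mouse 310 or 315 on day 0 or mouse 315 or 320 on day 20 (adjusted p up to 0.0948). The other Eif4ebp1 probe (A_52_P283674) did not show this fall. It was not called, and its day 20 change lay between 0.05 and 0.11 whichever array was left out. Between days 10 and 25 the first probe changed by 0.32 (adjusted p = 0.130), and the other by -0.09 to 0.02 over the arrays left out. Eif4ebp3 rose by 0.20 and 0.17 in its probes, each lost without mouse 305 or 315 on either day (adjusted p up to 0.115). Eif5a, the factor whose hypusine residue frees stalled ribosomes, fell in both probes by loess (-0.37 and -0.29, adjusted p = 0.0120 and 0.00860), against 0.79 and 0.28 with the median. Its relative Eif5a2 was higher on day 10 than on day 0 in 1 of its probes (0.36, adjusted p = 0.0133; -0.60 with the median) and lower on day 25 than on day 10 (-0.40, adjusted p = 0.00251; 0.56 with the median).

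**Figure D3:**
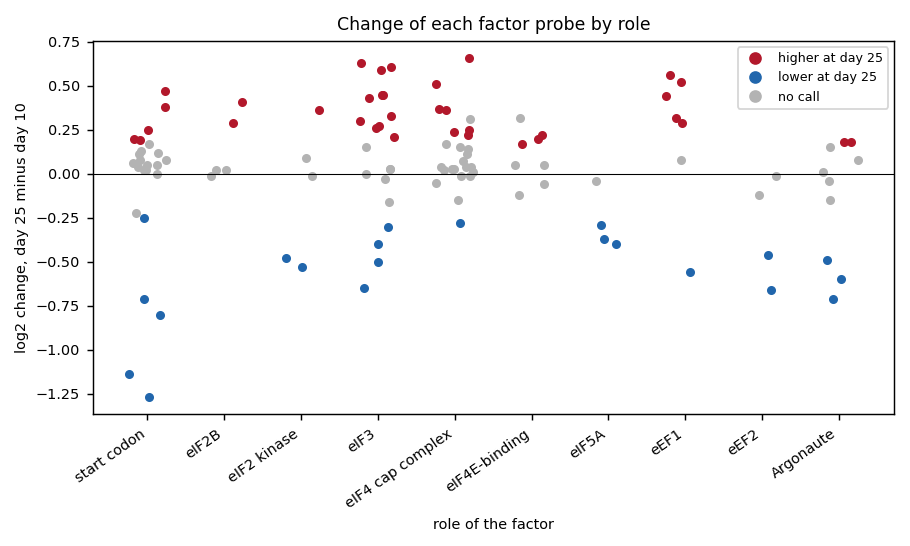
Log2 change from day 10 to day 25 after loess of each of the 113 factor probes, grouped by role, with calls at an adjusted p under 0.05 in colour and a random sideways shift to part the points. The eIF3 group holds 11 rises and 4 falls and eEF1 holds 5 rises and 1 fall, while eIF5A and eEF2 hold falls and no rise. Of all probes tested, 17.7% were higher and 13.7% lower. With median centring no factor probe was called lower.

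Of the elongation factors, eEF1 rose on day 25 in 5 of 7 probes and fell in 1 by loess, beside 17.7% and 13.7% of all probes tested. Eef1a1, which delivers aminoacyl-tRNA to the ribosome, read 0.16, 0.52, 0.15 and 0.05 on day 0, 0.02, -0.22, -0.07 and -0.07 on day 10, and -0.43, -0.15, -0.65 and -0.08 on day 15 in probe A_51_P118765. It read 0.14, 0.04, -0.05 and 0.00 on day 20 and 0.61, 0.47, 0.34 and 0.33 on day 25, when all 4 mice lay above days 10, 15 and 20. The rise from day 10 was 0.52 (SE 0.11, adjusted p = 0.00226), and 0.44 in the other probe (SE 0.0825, adjusted p = 0.000886). Day 15 lay below day 0 by 0.55 (SE 0.11, adjusted p = 0.00652) and, in the other probe, by 0.31 (adjusted p = 0.0304), which was lost without mouse 305, 310 or 315 on day 0 or mouse 315 on day 15 (adjusted p up to 0.112). With the Cy5 channel alone the rise of the second probe did not pass (0.19, adjusted p = 0.429).

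Eef1g and Eef1b2 belong to the complex that recharges eEF1A. Eef1g read -0.55, -0.75, -0.54 and -0.57 on day 10 and 0.13, 0.06, -0.20 and -0.17 on day 25 (change 0.56, SE 0.0875, adjusted p = 0.000272). Eef1b2 rose by 0.32 (adjusted p = 0.0183), lost without mouse 310 on day 10 or mouse 305 on day 25 (adjusted p up to 0.0610). Eef1d, the third subunit of that complex, read 0.13, 0.13, 0.16 and 0.12 on day 10 and -0.40, -0.33, -0.59 and -0.39 on day 25, a change of -0.56 by loess (SE 0.13, adjusted p = 0.00303) and of 0.66 with the median. The subunits of 1 complex were thus called in both directions by loess. Eef1e1, which is better known as a partner of tRNA synthetases, rose by 0.29 (adjusted p = 0.000386).

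Eef2, which moves the ribosome by 1 codon, fell by loess in 2 of 3 probes. Its probe A_52_P81562 read -0.33, -0.69, -0.49 and -0.11 on day 0, 0.19, -0.17, 0.43 and 0.02 on day 10, and -0.33, -0.03, -0.64 and -0.36 on day 25. Mouse 310 moved against the other 3 from day 10 to day 25 and the groups overlapped. The change was -0.46 (SE 0.14, adjusted p = 0.0230), lost without mouse 305 or 315 on day 10 or mouse 315 on day 25 (adjusted p up to 0.0889), and 0.82 with the median. The other called probe changed by -0.66 (SE 0.20, adjusted p = 0.0177; 0.41 with the median), lost without mouse 315 on day 10 or on day 25 (adjusted p up to 0.0715). Eef2k, the kinase that turns eEF2 off, changed by -0.01 (adjusted p = 0.927).

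The 10 genes known from textbooks as TOP messages held 18 probes. On day 25 against day 10, 10 of these were higher and 3 lower by loess (Eef2 in 2 and Eef1d), with a median change of 0.27. The other 95 probes held 26 higher and 18 lower by loess, with a median of 0.04. Of all probes tested, 17.7% were higher and 13.7% lower. With median centring 12 of the 18 were higher (66.7%), beside 56 of the other 95 (58.9%), and with scaling between arrays 3 (16.7%) beside 15 (15.8%). With the Cy5 channel alone 9 of the 18 were higher, beside 20 of the other 95. With the scanner software's log ratio the counts were 10 of the 18 beside 30 of the other 95. On day 15 against day 0, 6 of the 18 were lower and none higher by loess, and none was called with the median. By loess 4 of the other 95 were lower and none higher, beside 3.82% lower and 2.02% higher of all probes tested. Of the TOP genes with a promoter entry, 5 of 6 held the tract searched above. It began at -5 bases from the annotated start in Eef1a1, -4 in Eif3f, 10 in Eif4b, 15 in Eef2 and 31 in Eif3a.

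Ago2, the Argonaute that cuts its targets, read 0.01, 0.17, 0.21 and 0.39 on day 10 and -0.65, -0.09, -0.72 and -0.58 on day 25 (A_51_P180001). The change was -0.71 by loess (SE 0.12, adjusted p = 0.000468) and 0.34 with the median. A second probe changed by -0.60 (SE 0.11, adjusted p = 0.000779; 0.02 with the median) and another by -0.15 (adjusted p = 0.0751). On day 20 the first probe was above day 0 by 0.48 (adjusted p = 0.0411), a call lost on leaving out any of 10 arrays in turn (adjusted p reached 0.153) and -0.13 with the median. Ago4 gave probes in both directions, 2 higher by 0.18 each and 1 lower by 0.49, the last with a change of 0.08 under the median. The rises were lost without mouse 320 on day 10 or mouse 315 on day 25 (adjusted p up to 0.120), and 1 of them also without mouse 305 on either day. Without the Argonautes, 34 probes rose and 18 fell by loess, of 103.

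**Figure D4:**
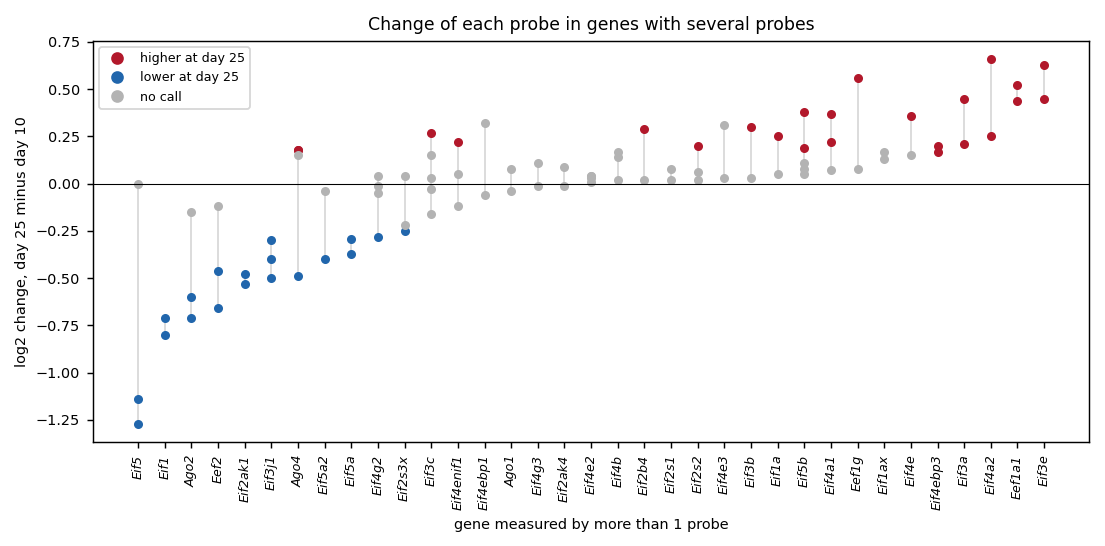
Log2 change from day 10 to day 25 after loess of every probe of the 35 factor genes measured by more than 1 probe, 1 point per probe joined by a grey line, sorted by the lowest probe. In 25 genes all probes share a sign; Eif5 and Ago4 hold probes far apart, and no fall was called with median centring.

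Probes of a gene are not independent, but they show how far a gene's value depends on where it was read. Of 35 genes with several probes, all were called higher in 5 (Eef1a1, Eif3a, Eif3e, Eif4a2 and Eif4ebp3) and all lower by loess in 4 (Eif1, Eif2ak1, Eif3j1 and Eif5a). No probe was called in 9. Most calls were of probes detected throughout, as 54 of the 85 probes above background on all 20 arrays were called between days 25 and 10, against 3 of the other 28. The same shares over all probes tested were not counted. The offset used shrinks the change of any dim probe, so this is not a result about the factors.

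Blood cell markers moved over the same days. All 8 erythroid markers tested, among them Hba-a1, Slc4a1 and Tfrc, fell from day 10 to day 25 by loess, beside 13.7% of all probes. Their median change was -1.47. With median centring the median was -0.32 and none was called. Their mean level ranged over the mice from 0.97 to 1.07 on day 10, 0.62 to 1.03 on day 15, 0.25 to 0.82 on day 20 and -0.61 to -0.09 on day 25, and from -0.19 to 0.87 on day 0, where mouse 305 was lowest and mouse 320 highest. The same 2 mice were lowest and highest on day 0 for both Eif1 probes and for the called Eif5 probes, but not for the third Eif5 probe. They were so for the Eif3j1 probe A_52_P202055 too, but not for the Eef2 probe A_52_P81562, where another mouse was lowest. This order was not counted over all called probes, and a link to the markers was not tested. Of 7 neutrophil markers, 6 were lower on day 10 than on day 0 by loess, beside 7.11% of all probes. On day 25, 1 was higher than on day 10 (17.7% of all probes) and 2 were lower than on day 0 (0.110%). The mean of the neutrophil markers ranged from 0.66 to 1.31 on day 0, -0.27 to 0.16 on day 10 and 0.11 to 0.61 on day 25. The mean of the T cell markers ranged from -0.02 to 0.11 on day 10 and 0.11 to 0.33 on day 25. Of 7 T cell markers 3, and of 5 B cell markers 2, were higher on day 25 than on day 10 by loess, beside 17.7% of all probes. Of the liver and hepatoma markers, Apob was above background on 0 arrays, Ttr on 1, Apoa1 on 3 and Alb on 4. H19 and Afp were above background on all 20. Of the 3 tested, 1 was higher on day 10 than on day 0 by loess, beside 4.07% of all probes. The part of these cell types in the factor changes was not tested, and in whole blood fewer cells of a type and less RNA per cell cannot be told apart.

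**Figure D5:**
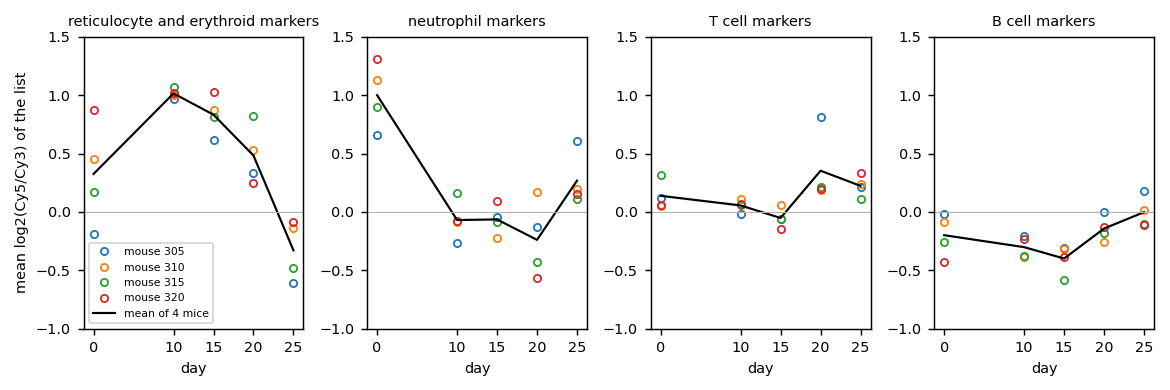
Mean log2(Cy5/Cy3) after loess of the marker genes of 4 blood cell types against day, with 1 open point per mouse and a line through the mean of 4 mice. The erythroid markers span 0.97 to 1.07 on day 10 and -0.61 to -0.09 on day 25, while the neutrophil markers are highest on day 0.

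Genes around the factors were read from lists of the same pathway. Of 14 genes of the TOR and cap-binding control list, 3, 4, 2 and 1 were lower on days 10, 15, 20 and 25 than on day 0 by loess, and none was higher, beside 7.11%, 3.82%, 1.97% and 0.110% of all probes lower. The day 25 call was Ddit4 (-0.67), lost on leaving out any of 15 arrays in turn (adjusted p up to 0.120). With scaling between arrays 1 was higher on each of the 4 days, and with median centring 11 were lower on day 10 and none was called on the later days. Ddit4, a TOR inhibitor induced by stress, was lower by 0.92 on day 15 (SE 0.13, adjusted p = 0.000649) and by 0.67 on day 20 (adjusted p = 0.0113, or 0.155 with scaling between arrays), and Sesn2, another TOR inhibitor, by 0.58 on day 20 (adjusted p = 0.00325). In the integrated stress response list, Ppp1r15a, which brings the phosphatase that reverses eIF2 phosphorylation, was higher on day 10 than on day 0 (0.69, adjusted p = 0.0290; -0.18 with the median). It was lower on day 25 than on day 10, with a change of -1.14 by loess (SE 0.20, adjusted p = 0.000469) and -0.37 with the median. The day 10 call was lost without mouse 305, 310 or 315 on day 0 or mouse 315 or 320 on day 10 (0.54 without mouse 310 on day 0, adjusted p = 0.0994).

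Pabpc4, a poly(A)-binding protein, fell by 1.23 from day 10 to day 25 by loess (SE 0.20, adjusted p = 0.000295) and changed by 0.00 with the median, 1 of 2 falls among 5 genes of its list. Tpt1, a TOP message, was higher than on day 0 by 0.71, 0.96 and 0.68 on days 10, 15 and 20 by loess (adjusted p = 0.00435, 0.000663 and 0.0143), and changed by -0.84, -0.50 and -0.22 with the median; the day 20 call was lost without mouse 315 or 320 on that day (adjusted p up to 0.0638). Of 19 tRNA synthetases, 5 rose and 2 fell by loess from day 10 to day 25, beside 17.7% of all probes higher and 13.7% lower. No list's share was tested against these. Lars, the leucine enzyme, rose by 0.39 (adjusted p = 0.00385, or 0.270 with scaling between arrays) after being lower than on day 0 by 0.50 on day 10 (adjusted p = 0.00333), and Nars fell by 0.61 by loess (adjusted p = 0.00425; 0.20 with the median). Of the 7 enzymes that modify eIF5A and eEF2, Dph2, Dph5 and Dhps rose and none fell. Tufm and Mtif2, 2 of 8 mitochondrial factors, rose by 0.40 and 0.22, but were at 0.17 and 0.10 with the Cy5 channel alone (adjusted p = 0.168 and 0.129). Denr and Abce1 rose among 7 termination and recycling genes, and none fell. Of the 27 pathway calls between days 25 and 10, scaling between arrays lost 12, Pabpc4 and Tpt1 among them, and the Cy5 channel alone lost 9 and turned Tpt1 to 0.58.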

How the data were processed

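Blood RNA of 4 mice on 5 days was read on 20 two-colour Agilent arrays of 41174 probes without control spots. The deposited scanner tables hold an intensity per channel and spot and a log10 ratio of Cy5 over Cy3, which the file headers say the authors made with the scanner program Agilent Feature Extraction, version 9.1.3.1. The deposited value table equalled that log10 ratio in 900360 of 900360 values (tolerance 1e-06), and it carries the scanner software's own dye normalization. Group, day and mouse number come from the labels.

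From the intensity values, limma 3.58.1 (R 4.3.3, statmod 1.5.0, data.table version 1.17.8) was used for normexp background correction with an offset of 50 and for loess within each array with control spots at weight 0. Non-uniform spots were left out and spots of a probe averaged on the log2 scale. A change is thus a difference of log2 ratios after an offset, which shrinks the change of dim probes. Loess sets the middle of each brightness class to 0, so a shift shared by most bright messages cannot be seen. A probe was tested if 4 or more of the 20 arrays had Cy5 well above background and 3 arrays of each day held a value. limma's moderated test was fitted to all 20 arrays with 5 day means and no block, for 5 comparisons and an F test. P-values were adjusted by the Benjamini-Hochberg method over all 20957 probes, with 0.05 as the threshold, and the steps were tested on simulated data. The number of arrays limits the precision.

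Numbers 305, 310, 315 and 320 name the same animals on each day, so the mouse pairs the samples. Deviations from the day means correlated by 0.0846 on average over 40 same-mouse pairs (21 above 0.1) and by -0.0287 over 120 other pairs, and the fit with the mouse as a block is given where it changes a call. The 4 samples of a day are 4 animals.

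Names were taken from the array's gene names and updated through RefSeq, 99 probes by accession, 5 by symbol and 9 by synonym. Promoter windows come from the same source (GRCm38.p6), where 46 of the factor genes had an entry. The members and lists were chosen with earlier results of these data known. Factors were named by rule: in each comparison the 8 highest and the 8 lowest called probes, the anchors of each role, and the 3 largest changes among pathway genes. The other genes named complete their role or list, and their choice came after their values had been seen. Alternatives were another centring or scaling, another background, no filter or a stricter one, non-uniform spots kept, 1 probe per gene name, the Cy5 channel alone, a mouse block, only the arrays compared, and each array left out in turn.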

Additional observations from a re-analysis of the deposited data

Results flagged for a closer look

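Among 260 sets of the 4 mice of a day, 16 held a mouse farther from the other 3 than the 95% limit for such a gap, and chance gives about 1 in 20, or 13.0. On day 0, mouse 305 was apart for Eif3e (A_52_P375037, 0.41 against 0.07 to 0.12), Eif4a1 (A_52_P541826, 0.20) and Tpt1 (-0.47), and mouse 320 for Eif3l (-0.39 against 0.07 to 0.09). On day 10, mouse 310 was low for Eif3h (-0.88) and Eef1g (-0.75). On day 15, mouse 315 was high for Eif5 (A_51_P244439, 0.99), and mouse 310 was apart for both Eif5a probes (0.25 and -0.10) and for Ddit4 (-0.32). On day 20, mouse 310 was high for Eif1 (A_51_P283837, -0.04) and mouse 305 was low for Eef1a1 (A_52_P299505, -0.04) and Tpt1 (0.30). On day 25, mouse 315 was low for Eif3a (A_51_P229280, -0.05), mouse 305 for Eif2ak1 (A_51_P385773, -0.28), and mouse 310 was high for Eif4g1 (-0.09).

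The change from day 0 differed between days 25 and 10 in all 12 probes named as the highest or lowest called on day 10. That difference equals the one between the 2 days (limma's adjusted p from 4.89e-05 to 0.0370). The probes were picked for their day 10 change and the same day 10 arrays enter both comparisons, so the p-values are not independent support. The difference was below 0 by loess for Eif5 (-1.14), Ago2 (-0.60), Eef2 (-0.46) and Eif5a2 (-0.40), and above 0 with the median in each of them. It was above 0 for Eif4a2 (0.66), Eif3l (0.61), Eif3g (0.59), Eif4h (0.51), Eif3e (0.45), Eif3a (0.45), Eif5b (0.38) and Eif3c (0.27).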

How the results depend on the processing

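How many factor probes were called, with higher and lower numbers in brackets, moved most with the centring and the background, and the cause was not tested. With median centring the counts for days 10, 15, 20 and 25 against day 0 were 66 (0 and 66), 0, 0 and 0, where 59, 26 and 1 probes had an unadjusted p under 0.05 on the last 3, and limma's median changes were -0.89, -0.66 and -0.47 on days 10 to 20 and 0.66 for day 25 against day 10. With the scanner software's log ratio they were 41, 47 and 9 on days 10, 15 and 20 and 67 over the 5 days, with medians of -0.15, -0.15, -0.07 and 0.23. Scaling between arrays gave 34 on day 15, 2 on day 25 and 26 for day 25 against day 10. The Cy5 channel alone gave 44, 31 and 16 on days 15, 20 and 25 and 73 over the days (median on day 15 -0.08). No background correction gave 60, 52, 19 and 20, and 79 over the days (median on day 15 -0.07). The negative control background gave 56, 51, 24 and 19, and 77 over the days (median 0.10 for day 25 against day 10). Without a filter on dim probes 13 were called on day 10 and 0 on day 25 (unadjusted 30), and with non-uniform spots kept 0 on day 25 (unadjusted 25). With probes above background on all 20 arrays the medians were -0.11 and -0.06 on days 10 and 15, and with 1 probe per gene name -0.12, -0.08 and 0.17 for days 10, 15 and 25 against 10. With only the 8 arrays compared, 7, 1, 0 and 0 were called against day 0 (unadjusted 12 and 15 for the last 2).

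Leaving out each array in turn gave 6 to 31, 5 to 17, 0 to 13 and 0 to 10 calls against day 0, 42 to 60 for day 25 against day 10 and 34 to 54 over the days. The medians ranged from -0.08 to -0.05, -0.04 to -0.02, -0.04 to 0, -0.01 to 0.03 and 0.04 to 0.07. Of 67 named calls, 36 were kept whichever array was left out. With the mouse as a replicate block the counts were 27, 13, 6, 2 and 56, and as a random block 22, 11, 5, 1 and 57. The block added day 10 calls for 2 Eif4a1 probes (-0.27 and -0.23) and ended the day 25 call of Eif3c.

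Among the genes chosen by the naming rule, these directions turned where the main fit or the other setting called the change. Turns of sign that neither called were not listed. With the median, day 10 against day 0: Eif5 -0.94, Eef2 -0.95, Ago2 -0.23, Eif5a2 -0.60, Eif4g1 -0.89, Eif1 -1.09, Tpt1 -0.84 and Ppp1r15a -0.18. On day 15, Tpt1 was at -0.50 and Paip2 at -0.93, and on day 20 Ago2 was at -0.13 and Tpt1 at -0.22. For day 25 against day 10 with the median, Eif5 was at 0.08, Eif1 at 0.40 and 0.45, Ago2 at 0.34 and 0.02, Eef2 at 0.41 and 0.82, Eif3k at 0.49, Eif2ak1 at 0.04 and 0.06, Eif5a at 0.79 and 0.28 and Tpt1 at 0.60. With the scanner's ratio Eef2 was at -0.48 on day 15. With the Cy5 channel alone Eif3a was at 0.22, 0.31 and 0.45 on days 10, 15 and 20, Eif3e at 0.14 and Eif5b at 0.24 on day 10, Eif2s1 at -0.12, -0.12 and -0.23 on days 10 to 20, Eif1 at 0.59 on day 25, and, for day 25 against day 10, Eif1 at 0.01 and Tpt1 at 0.58. Eif4a1 was at -0.11 and -0.19 on day 20 with no and with the negative control background. Of all calls, the median turned 20 of 57 factor probes and 7 of 27 pathway genes for day 25 against day 10, and 4 of 21 and 2 of 15 for day 10 against day 0. The Cy5 channel alone turned 3 and 1, and 5 and 2. Pathway calls outside the rule that turned with the median for day 25 against day 10 included Paip2 (0.72), Mknk2 (0.88), Vars (0.58) and Gcn1 (0.34), and with the Cy5 channel alone on day 10 Dhps (0.06) and Sars (0.11).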
